A study of Mus musculus with 5 samples.

Results

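The genes described here are 37 members of the amino acid, one-carbon and ATF4 programme of the cell, out of 21366 genes with a named probe on the array. They were taken as a list of symbols: ATF4 and stress regulators, growth brakes, enzymes that make or convert amino acids, folate one-carbon enzymes, amino acid transporters and the receptor Vldlr. Of the 37 members, 36 had a probe named through its RefSeq accession, and 35 of those were well above background, by the scanner software's own mark, on at least 1 array. No named probe was found for Pycr1, a proline synthesis enzyme, which has no value here. The probe of Slc7a11, the cystine importer, was not well above background on any of the 5 arrays.

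Total RNA came from 5 cultures that all began with naive CD4 T cells from the spleen of C57BL/6 mice, and each culture was measured on 1 array. Th1 cells had 4 days with anti-CD3/CD28, IL-2, IL-12 and anti-IL-4, and iTreg cells had 4 days with anti-CD3/CD28, IL-2, TGF-b and antibodies to IFNg and IL-4. Th1+TGFb cells were Th1 cells that then spent 4 days in the iTreg condition, 8 days in all. Rested cells were Th1 cells that then spent 4 days in IL-2 with anti-IFN-g and anti-IL-4 but without anti-CD3/CD28, also 8 days in all. Th1reg cells were rested cells that then spent 4 days in the iTreg condition, 12 days in all. The sources used here do not give how many animals the cells came from or whether animals were pooled. With 1 array for each culture there is no spread between samples and no test, and every difference below is between 2 arrays.

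ATF4 is a transcription factor whose protein is made when amino acids run short or the endoplasmic reticulum is stressed, because kinases then phosphorylate the initiation factor eIF2 and ATF4's mRNA escapes the resulting block on translation. It switches on genes for amino acid import, for serine and asparagine synthesis and for the mitochondrial folate enzymes that pass carbon units from serine to purines and thymidylate. In T cells this programme is also engaged after antigen receptor stimulation, through mTORC1 and MYC as well as ATF4, when dividing cells need amino acids and nucleotides. The ATF4 protein is controlled largely at translation, so the mRNA level of Atf4 is only a partial measure of it.

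ATF4 binds, with a C/EBP partner, to a composite element (CARE) that holds the letters TGATGNAA. The count of matches is shown first because no signal enters it. Several members are on the list as known ATF4 targets, so a high share of matches among them is no independent result. RefSeq promoter windows of assembly GRCm38.p6, from 250 bases before to 50 bases after each gene's start, were listed for 32 of the 37 members. On either strand, 9 of these 32 members (28.1%) had the letters in at least 1 window, against 1219 of 27025 genes (4.51%). The 9 members were Trib3, Nupr1, Chac1, Asns, Pycr1, Got1, Slc7a11, Slc1a4 and Vldlr. The E-box CACGTG, the core site of MYC and related factors, was in the windows of 3 members (9.38%), Nupr1, Aldh18a1 and Cbs, and of 8.09% of genes. A match is a run of letters and not a measured binding site. A stretch is printed for each of 5 members, which were picked by their signals. Asns, Chac1 and Got1 were low in rested cells, Nupr1 was lowest in rested and highest in Th1reg, and Vldlr was lowest in Th1reg. Their choice is thus no independent result. Each stretch is on the gene's own strand, 5′ to 3′, ends at or before the start site, and has the matched letters in capitals (TTGCATCA is the same element read on the other strand).
Asns, chr6:7693210-7693262, minus strand: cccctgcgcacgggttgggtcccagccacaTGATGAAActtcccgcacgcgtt
Chac1, chr2:119351019-119351086, plus strand: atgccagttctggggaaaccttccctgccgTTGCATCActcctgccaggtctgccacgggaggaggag
Got1, chr19:43524670-43524737, minus strand: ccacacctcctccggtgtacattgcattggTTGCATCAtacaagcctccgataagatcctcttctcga
Nupr1, chr7:126625543-126625610, minus strand: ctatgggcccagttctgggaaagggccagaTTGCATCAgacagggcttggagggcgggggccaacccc
Vldlr, chr19:27216790-27216857, plus strand: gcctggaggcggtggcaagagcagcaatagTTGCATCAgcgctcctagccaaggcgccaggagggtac
Counted from the start site, the match began at position -23 in Asns, -102 in Got1, -110 in Nupr1, -193 in Chac1 and -200 in Vldlr. In Slc1a4 and Trib3 the match lay across or after the start site.

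Levels are given as scaled log2 signal: the processed signal divided by the 75th percentile of its array, on a log2 scale, so that 0 is the level of that percentile and 1 unit is a factor of 2. Levels are compared between cultures for the same probe, or for the same set of probes where a sum is given, and not between probes. A gene is counted as higher or lower at 2-fold or more. Where the dimmer array did not mark the probe as well above background, only a bound on the fold could be had, marked "at least". Repeat spots on an array had a median SD of 0.0560 to 0.0733 log2 units, which gives an SD of 0.0824 to 0.095 for a difference. That spread is technical and says nothing about how far repeat cultures would vary.

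The 75th percentile of the raw signal was 240 in Th1, 144 in rested, 307 in Th1reg, 198 in Th1+TGFb and 271 in iTreg, and 44.9% to 48% of probes were well above background. All 7 CD4 T cell markers were well above background on all 5 arrays. Foxp3, the regulator that defines regulatory T cells, was well above background only in Th1reg (4.12) and iTreg (5.26). The other regulatory T cell markers did not follow Foxp3. Il2ra was 8.03 in Th1, 5.07 in rested, 7.92 in Th1reg, 7.01 in Th1+TGFb and 8.24 in iTreg. Ctla4 was 4.51 in Th1, 2.76 in rested, 3.66 in Th1reg, 4.37 in Th1+TGFb and 2.36 in iTreg, its lowest. The summed scaled linear signal of the Th1 markers Tbx21, Ifng and Il12rb2 was 1290 in Th1 and 786 in Th1+TGFb. It was 26.7 in rested, 359 in Th1reg and 4.06 in iTreg. Of the markers of other cell types, the 4 B cell markers summed to a scaled linear signal of 0.276 in Th1, 1.32 in rested, 0.396 in Th1reg, 0.608 in Th1+TGFb and 1.35 in iTreg, with Cd79a not above background on any array. The 4 CD8 T and NK markers summed to between 0.273 in Th1reg and 1.35 in iTreg, the 5 myeloid markers to between 0.497 and 1.27, and the 3 erythroid markers to at most 0.283. Cd8a was well above background only in iTreg, at least 10.4-fold above Th1, as was the erythroid marker Hba-a1, at least 3.07-fold above Th1. Cd8b1 was well above background on all 5 arrays and highest in rested (-0.75). The 7 CD4 T cell markers summed to between 933 in iTreg and 2200 in Th1+TGFb. Sums of different lists come from different probes, so each is read only between cultures. The part of these other cells in the signals of rested and iTreg cells, where the summed B cell and CD8 T and NK markers were highest, was not tested. All 5 arrays lay on 1 slide with 1 scan time.

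Most members had less signal in rested cells than in the Th1 cells they came from. Of the 35 measured members, 30 were at least 2-fold lower in rested and 0 were at least 2-fold higher, where 26.6% of all genes measured in that comparison were lower and 17.6% higher. The members' median log2 difference was -2.11, against -0.29 for all genes, and 34 of the 35 lay below the all-gene median. The 6 proliferation genes moved with them: all 6 were lower in rested, by a median of -3.19, and their summed scaled signal was 332 in Th1 and 44.2 in rested. Their part in the members' difference was not tested. In bulk RNA like this, fewer cells of a type and less RNA per cell cannot be told apart.

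The iTreg condition applied to rested cells went with the opposite change. In Th1reg against rested, 27 members were higher and 2 lower, where 27.6% of all genes were higher and 20.1% lower, and the median was 2.13 against 0.29 for all genes. All 6 proliferation genes were higher, by a median of 3.50, and their summed signal in Th1reg was 380. Th1reg and Th1, the cultures at the ends of that path, differed little in all genes as well as in the members. In Th1reg 1 member was higher and 5 lower, where 6.27% of all genes were higher and 8.58% lower. The median was -0.21 against 0.01. The small difference is thus not read as particular to the members.

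The other cultures gave smaller shifts. In iTreg against Th1, 2 members were higher and 19 lower, where 10.9% of all genes were higher and 17.8% lower, with a median of -1.17 against -0.23. In Th1+TGFb against Th1, 0 members were higher and 10 lower, where 11.4% of all genes were higher and 7.77% lower, with a median of -0.82 against -0.20. Here 4 of the 6 proliferation genes were lower too, with a median of -1.39 and a summed signal of 141 in Th1+TGFb, whereas in iTreg 1 of 6 was lower, with a median of -0.26 and a summed signal of 304. The CD4 T cell markers moved as well: 4 of 7 were lower in iTreg than in Th1 and 0 higher, with a median of -1.25, and all 7 lay below the all-gene median. What part these genes have in either count was not tested.

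Th1reg can also be set against the other cultures that saw TGF-b. Against iTreg, 15 members were higher in Th1reg and 3 lower, where 15.8% of all genes were higher and 12.2% lower, with a median of 0.72 against 0.28. Against Th1+TGFb, 11 members were higher in Th1reg and 1 lower, where 12.3% of all genes were higher and 15.2% lower, with a median of 0.72 against 0.19. All 6 proliferation genes were higher in Th1reg than in Th1+TGFb, by a median of 1.60, and 2 of the 6 were higher than in iTreg. Of the 7 CD4 T cell markers, 3 were higher in Th1reg than in iTreg, with a median of 0.91, and their part in the members' count was not tested. Comparisons that share an array are not independent of each other, so their counts are given side by side only.

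**Figure D1:**
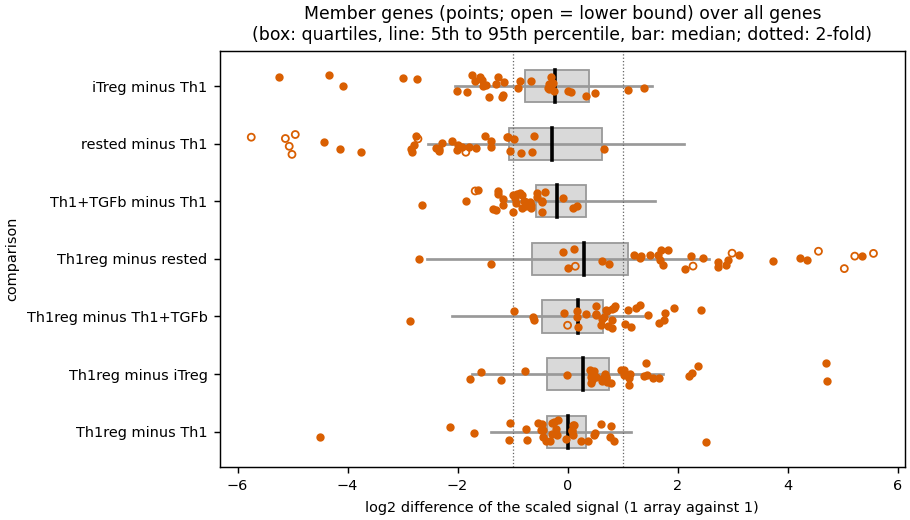
Log2 differences of scaled signal for the 35 measured members (points, open where the value is a bound for the probe used) in 7 comparisons of 1 array against 1, over boxes and lines that give the quartiles and the 5th to 95th percentile of all genes measured. The members lie left of the all-gene median in rested against Th1, with 34 of 35 below it, and mostly right of it in Th1reg against rested.

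The scale sets where 0 lies, since the arrays differed in total signal. With spike-in scaling the median of all genes moved by -1.13 in rested against Th1, by 1.43 in Th1reg against rested and by 0.60 in Th1reg against Th1+TGFb, and by -0.31, 0.30, 0.34 and -0.05 in Th1+TGFb against Th1, Th1reg against Th1, iTreg against Th1 and Th1reg against iTreg. With the 75th percentile taken over probes well above background on all arrays it moved by 0.46, -0.43, -0.20, 0.23, 0.01, 0.37 and -0.34 in the same order. The share of higher genes among all genes 2-fold apart in rested against Th1 was 39.8%, 65.4% with the detected probes and 6.99% with the spike-ins. In Th1reg against rested these shares were 57.9%, 36.5% and 92.5%. In iTreg against Th1 they were 37.9%, 64.4% and 61.9%, and in Th1+TGFb against Th1 they were 59.4%, 78.6% and 29%. In Th1reg against Th1+TGFb they were 44.7%, 27.5% and 81.9%, in Th1reg against iTreg 56.4%, 31.1% and 53.1%, and in Th1reg against Th1 42.2%, 43.5% and 64.8%.

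Each scaling moves all values of an array by 1 constant, so it shifts the members and the other genes together and the gap between their medians says nothing about stability. Among members 2-fold apart, 91.7% were higher in Th1reg than in Th1+TGFb, and 80% (8 higher, 2 lower) with the detected probes. Against iTreg the share was 83.3%, and 71.4% (10 higher, 4 lower) with the detected probes. Against Th1 it was 16.7%, and 57.1% (4 higher, 3 lower) with the spike-ins.

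Rested cells were the lowest culture for 24 of the 35 members, where they were lowest for 31.3% of all genes. The highest culture was Th1 for 17 members and Th1reg for 14, where these were highest for 21.8% and 27.2% of all genes. With spike-in scaling rested cells were lowest for 32 members and for 64% of genes.

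**Figure D2:**
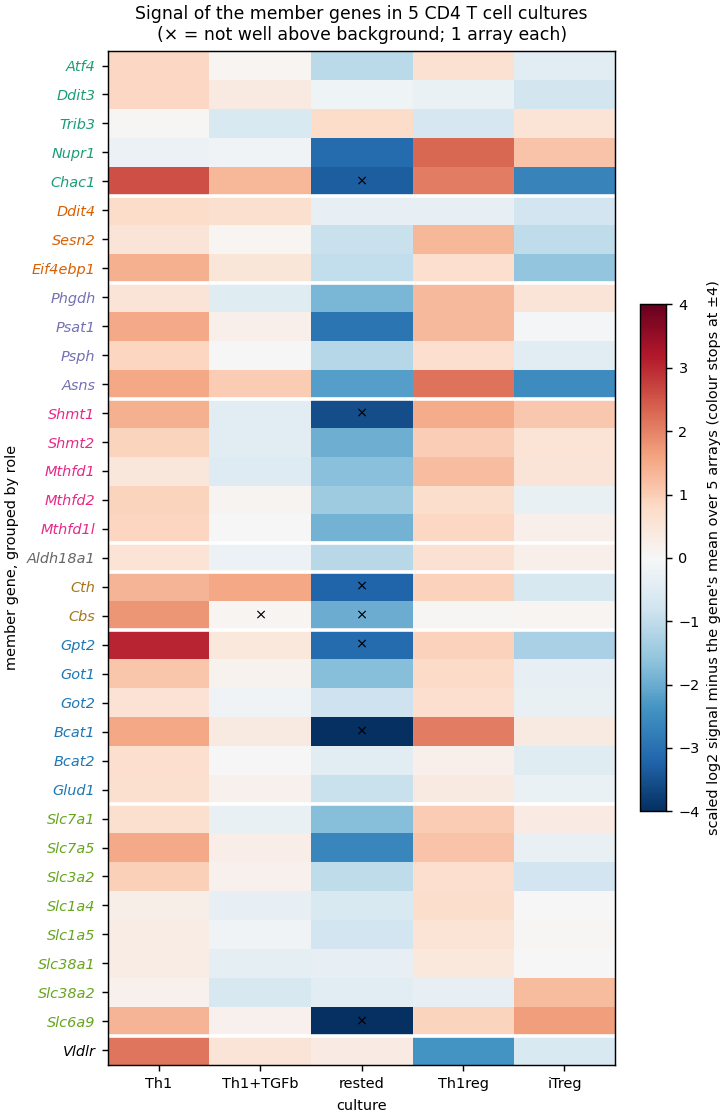
Scaled log2 signal of each of the 35 measured members (rows, grouped by role) in the 5 cultures (columns, 1 array each), minus the gene's mean over the arrays, with a cross where the probe was not well above background. Rested is the lowest culture for 24 members, Nupr1 among them, and iTreg for 6. Cbs is not in these counts: its drawn value is lowest in rested, but it was dim in both rested and Th1+TGFb. Trib3 is highest in rested, Slc38a2 is highest in iTreg and Vldlr is lowest in Th1reg.

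Among the regulators, Atf4 itself had a scaled log2 signal of 7.96 in Th1, 6.03 in rested, 7.72 in Th1reg, 7.20 in Th1+TGFb and 6.69 in iTreg. It was thus highest in Th1 and Th1reg, which differed by 0.24, and 3.79-fold lower in rested than in Th1. In iTreg it was 2.40-fold lower than in Th1, a log2 difference of -1.26 that came to -0.89 with the detected probes and -0.92 with spike-ins, under 2-fold.

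Chac1, a glutathione-degrading enzyme and a sensitive ATF4 target, had the widest range of the regulators. Its level was 2.52 in Th1, 1.25 in Th1+TGFb and 1.99 in Th1reg, but -2.73 in iTreg, and in rested cells it was not well above background (-3.36). It was at least 53.8-fold lower in rested than in Th1 and 38.1-fold lower in iTreg. The 2 cultures with little Chac1 thus had different histories: one had no stimulation in its last 4 days, the other had never been Th1.

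Ddit3, which encodes the stress factor CHOP, was 2.17 in Th1, 1.19 in rested, 1.09 in Th1reg, 1.70 in Th1+TGFb and 0.61 in iTreg. Its rested value was 1.97-fold below Th1, just under the 2-fold mark, and unlike most members it was no higher in Th1reg than in rested (log2 difference -0.09, and 1.33 with spike-ins). Against Th1 it was 2.10-fold lower in Th1reg, a log2 difference of -1.07 that was -0.78 with spike-ins, and 2.94-fold lower in iTreg.

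Trib3, a pseudokinase that feeds back on ATF4, ran another way. Its level was 3.53 in Th1, 4.21 in rested, 2.80 in Th1reg, 2.87 in Th1+TGFb and 4.02 in iTreg, so rested and iTreg cells had the most. The log2 difference of rested from Th1 was 0.67, 1.20 with the detected probes and -0.46 with spike-ins. Th1reg was 2.64-fold lower than rested (log2 difference -1.40), but 0.02 with spike-ins, so its direction there depends on the scale.

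Nupr1, a small stress-induced chromatin protein, was 1.28 in Th1, -1.57 in rested, 3.79 in Th1reg, 1.36 in Th1+TGFb and 2.66 in iTreg. It was the only member to exceed its Th1 level by 2-fold in Th1reg, by 5.72-fold, and it was 41.2-fold above rested there. Against Th1 it was 2.62-fold higher in iTreg, where Chac1, Ddit3 and Atf4 were lower, and against iTreg it was 2.19-fold higher in Th1reg (log2 difference 1.13, 0.76 with the detected probes).

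The growth brakes act on mTORC1 or on translation and are ATF4 targets. Sesn2, a leucine sensor that restrains mTORC1, was 2.45 in Th1, 1.05 in rested, 3.29 in Th1reg, 2.04 in Th1+TGFb and 0.92 in iTreg. Th1reg cells had the most, 4.73-fold above rested and 5.17-fold above iTreg. Against Th1 it was 2.65-fold lower in rested, a log2 difference of -1.40 that was -0.88 with the detected probes.

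Eif4ebp1, which encodes the cap-binding repressor 4E-BP1, was 6.00 in Th1, 3.60 in rested, 5.25 in Th1reg, 5.08 in Th1+TGFb and 3.0 in iTreg. Rested and iTreg cells were the low pair, 5.26-fold and 8.02-fold below Th1. Ddit4, the mTORC1 inhibitor REDD1, was 7.64 in Th1, 6.59 in rested, 6.59 in Th1reg, 7.56 in Th1+TGFb and 6.15 in iTreg. Its values in rested and Th1reg were alike on this scale (log2 difference 0.01, but 1.43 with spike-ins and -0.51 with the detected probes). Against Th1 it was 2.08-fold lower in rested, 2.07-fold lower in Th1reg and 2.82-fold lower in iTreg, of which the log2 difference in rested was -0.53 with the detected probes and that in Th1reg -0.75 with spike-ins.

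Serine is made from a glycolytic intermediate by Phgdh, Psat1 and Psph in turn, and asparagine is made by Asns. All 4 were lower in rested than in Th1, with a median log2 difference of -3.04, and all 4 were higher in Th1reg than in rested, with a median of 3.66. Psat1 was 5.72 in Th1, 1.29 in rested, 5.51 in Th1reg, 4.41 in Th1+TGFb and 4.12 in iTreg. Rested cells were far below the other 4 cultures, 21.5-fold below Th1 and 18.6-fold below Th1reg.

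Phgdh, the first enzyme, was 6.27 in Th1, 3.94 in rested, 7.05 in Th1reg, 5.28 in Th1+TGFb and 6.27 in iTreg. Its signal was the same in iTreg and Th1 (log2 difference -0.00, 0.34 with spike-ins), although Psat1 and Psph, the next steps of the pathway, were 3.03-fold and 2.49-fold lower in iTreg than in Th1. For Psph that call was lost with the detected probes (-0.94) and with spike-ins (-0.97). Psph ranged from 2.07 in rested to 4.08 in Th1.

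Asns was 5.66 in Th1, 1.91 in rested, 6.27 in Th1reg, 5.11 in Th1+TGFb and 1.58 in iTreg. The values form 2 levels: Th1, Th1+TGFb and Th1reg between 5.11 and 6.27, and rested and iTreg at 1.91 or below. Against Th1 it was 13.4-fold lower in rested and 17.0-fold lower in iTreg, and against iTreg it was 25.9-fold higher in Th1reg. Asns and Chac1 were the members with the largest excess of Th1reg over iTreg, with log2 differences of 4.69 and 4.72.

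The folate one-carbon enzymes move carbon units between serine, glycine and folate carriers, Shmt2, Mthfd2 and Mthfd1l in mitochondria and Shmt1 and Mthfd1 in the cytosol. All 5 were lower in rested than in Th1 (median -2.76) and all 5 were higher in Th1reg than in rested (median 2.88). Shmt2 was 4.90 in Th1, 2.08 in rested, 5.0 in Th1reg, 3.55 in Th1+TGFb and 4.56 in iTreg. Shmt1 was 1.81 in Th1, 1.89 in Th1reg, -0.05 in Th1+TGFb and 1.48 in iTreg, and in rested this probe, the brighter of a pair, was not well above background (-3.14), at least 30.9-fold below Th1. The other Shmt1 probe was well above background on all 5 arrays and gave smaller log2 differences from Th1, -2.53 in rested and -1.17 in Th1+TGFb, so the size for Shmt1 depends on the probe. For Shmt2 and the brighter Shmt1 probe, iTreg lay close to Th1 and Th1reg, while Th1+TGFb was 2.56-fold (Shmt2) and 3.61-fold (Shmt1) below Th1.

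Mthfd1 was 3.47 in Th1, 1.36 in rested, 4.24 in Th1reg, 2.49 in Th1+TGFb and 3.54 in iTreg, and Mthfd1l ran from 1.97 in rested to 4.73 in Th1. Mthfd2, the mitochondrial dehydrogenase that is prominent in dividing cells, was 3.04 in Th1, 0.75 in rested, 2.88 in Th1reg, 2.28 in Th1+TGFb and 1.86 in iTreg. It was the only one of the 5 that was 2-fold lower in iTreg than in Th1, by 2.28-fold, and its log2 difference of -1.19 was -0.81 with the detected probes and -0.85 with spike-ins. In Th1+TGFb against Th1, Mthfd1 was 1.98-fold lower and Phgdh 1.99-fold lower, both just under 2-fold.

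**Figure D3:**
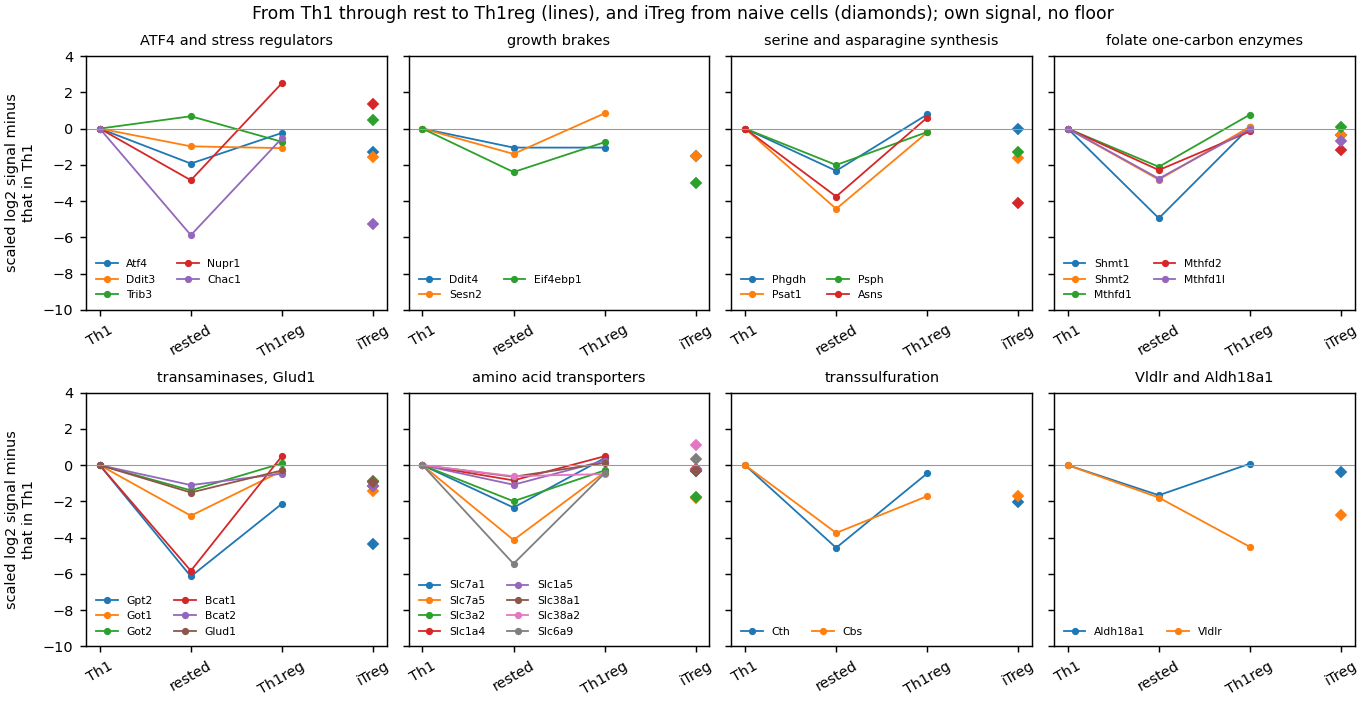
Scaled log2 signal of the members minus that in Th1, by role, along the path from Th1 through rest to Th1reg (lines, 1 array per point) and in iTreg cells (diamonds), using each probe's own signal with no floor. Most lines dip at rested and return to near 0 at Th1reg, and the diamonds of Asns, Chac1, Gpt2 and Eif4ebp1 lie far below 0 while those of the folate enzymes lie near it.

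Proline synthesis was represented by Aldh18a1, its first enzyme, which ranged from -0.09 in rested to 1.65 in Th1reg and was 3.16-fold lower in rested than in Th1. The transsulfuration enzymes Cbs and Cth, which turn homocysteine into cysteine, were dim. Cth was -0.50 in Th1, -0.95 in Th1reg, -0.33 in Th1+TGFb and -2.51 in iTreg, and was not well above background in rested, at least 6.61-fold below Th1. Cbs was -1.38 in Th1, -3.09 in Th1reg and -3.08 in iTreg, and was not well above background in Th1+TGFb and rested. Its 3.26-fold and 3.24-fold lower signal in Th1reg and iTreg than in Th1 lay near the background, and with another background correction (normexp) the log2 differences were -0.94 and -0.90, and those of Th1+TGFb and rested from Th1 were also under 2-fold (-0.57 and -0.60).

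Transaminases move amino groups between amino acids and keto acids. Gpt2, the mitochondrial alanine transaminase, was 1.90 in Th1, -0.23 in Th1reg, -0.74 in Th1+TGFb and -2.44 in iTreg, and was not well above background in rested (-4.24). It was highest in Th1 alone: every other culture was lower, by 4.40-fold in Th1reg, 6.25-fold in Th1+TGFb, 20.3-fold in iTreg and at least 35.1-fold in rested. No other member was as far below Th1 in Th1+TGFb.

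Bcat1, the cytosolic branched-chain transaminase, was 1.83 in Th1, 2.33 in Th1reg, 0.66 in Th1+TGFb and 0.67 in iTreg, and in rested this probe, the brightest of 3, was not well above background, at least 33.3-fold below Th1. On all 5 arrays the other probes of Bcat1 had signal well above background, with log2 differences of -3.41 and -2.36 in rested against Th1. Its 2.24-fold lower signal in iTreg was not shared by all of its 3 probes, of which 1 gave a log2 difference of 0.58 against -1.16. Bcat2, the mitochondrial form, varied less, from 1.67 in iTreg to 2.84 in Th1. Got1, the cytosolic aspartate transaminase, was 5.33 in Th1, 2.54 in rested, 5.01 in Th1reg, 4.38 in Th1+TGFb and 3.89 in iTreg. Its mitochondrial partner Got2 (4.13 in rested to 5.62 in Th1reg) and Glud1, glutamate dehydrogenase (4.40 in rested to 5.91 in Th1), also had their lowest value in rested.

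Among the transporters, Slc7a5 and Slc3a2 form the heterodimer that imports leucine and other large neutral amino acids. Slc7a5 was 2.85 in Th1, -1.28 in rested, 2.46 in Th1reg, 1.59 in Th1+TGFb and 1.04 in iTreg, which put rested 17.5-fold below Th1. Its other probe gave a far smaller log2 difference there, -0.86 against -4.13, so the size for Slc7a5 depends on the probe. Slc3a2 was 6.36 in Th1, 4.37 in rested, 6.07 in Th1reg, 5.56 in Th1+TGFb and 4.62 in iTreg, and rested and iTreg were 3.98-fold and 3.34-fold below Th1.

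Slc6a9, the glycine transporter GLYT1, was 1.78 in Th1, 1.33 in Th1reg, 0.61 in Th1+TGFb and 2.11 in iTreg, and was not well above background in rested, at least 32.2-fold below Th1. Slc7a1, the importer of arginine and lysine, was 5.03 in Th1, 2.69 in rested, 5.42 in Th1reg, 4.10 in Th1+TGFb and 4.73 in iTreg. For both of these, iTreg was within 2-fold of Th1, where Slc3a2 was lower. Slc7a5 was lower in iTreg by its brighter probe (a call counted here) and within 2-fold by the other (log2 difference -0.69). The neutral amino acid exchanger Slc1a5 (3.57 in rested to 4.90 in Th1reg) and its relative Slc1a4 (-1.99 in rested to -0.66 in Th1reg) had narrower ranges.

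The glutamine carriers Slc38a1 and Slc38a2 were under 2-fold apart between rested and Th1 on the main scale (log2 differences -0.64 and -0.61) but not with spike-ins (-1.77 and -1.74). The other probes of Slc38a1 gave -1.69 and -0.19 there. By its brightest probe Slc38a1 lay between 4.81 in Th1+TGFb and 5.61 in Th1reg. Slc38a2, which imports neutral amino acids and is induced by their lack, was 4.36 in Th1, 3.75 in rested, 3.87 in Th1reg, 3.54 in Th1+TGFb and 5.45 in iTreg. It was highest in iTreg, 2.14-fold above Th1 and 3.0-fold above Th1reg.

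Vldlr, a lipoprotein receptor that ATF4 can induce, was 1.76 in Th1, -0.03 in rested, -2.75 in Th1reg, 0.13 in Th1+TGFb and -0.97 in iTreg. It was the 1 member lower in Th1reg than in every other culture by more than 2-fold: 22.7-fold below Th1, 7.33-fold below Th1+TGFb, 6.56-fold below rested and 3.42-fold below iTreg. Where most members returned toward their Th1 level after rest, Vldlr was lower again. All of these folds rest on the brighter of 2 Vldlr probes, since the other was not well above background on any of the 5 arrays. The level of -2.75 in Th1reg was itself low, where the lowest level well above background on that array was -3.96. With the median over its probes, the difference of Th1+TGFb from Th1 came to -0.70 in place of -1.63, under 2-fold.

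iTreg cells thus divided the members. The 19 that were lower than in Th1 included 3 of 5 regulators, all 3 growth brakes, 3 of 4 serine and asparagine enzymes, both transsulfuration enzymes, 4 of 6 in the group of transaminases and Glud1, and Vldlr. Against that, 1 of 5 folate enzymes and 2 of 8 measured transporters were lower, where 17.8% of all genes were lower. The median log2 difference was -0.35 for the folate enzymes and -0.29 for the transporters, close to the -0.23 of all genes, and -1.46 for serine and asparagine synthesis. Of the 6 proliferation genes, 1, Cdk1, was lower in iTreg than in Th1, by 2.72-fold. Their median was -0.26 and their summed signal 304 against 332, and their part in the members' difference was not tested. With the detected probes and with spike-ins, 14 members were lower, the calls of Atf4, Psph, Mthfd2, Bcat1 and Bcat2 falling short of 2-fold. The CD4 T cell markers were lower here too, by a median of -1.25.

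**Figure D4:**
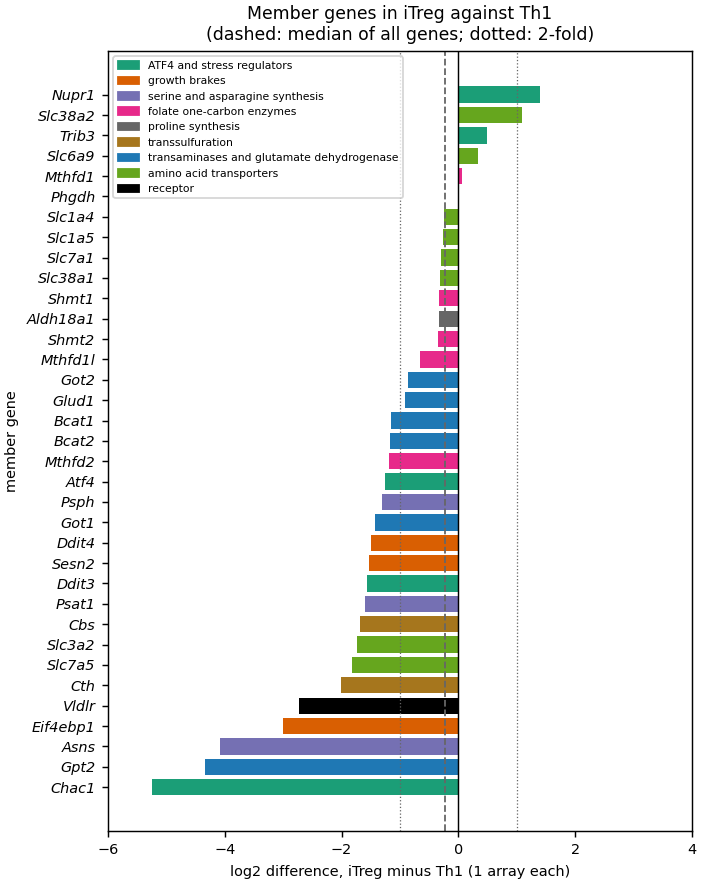
Log2 difference of scaled signal between the iTreg and the Th1 array for each of the 35 measured members, coloured by role, with the all-gene median dashed and 2-fold dotted. Chac1, Gpt2, Asns and Eif4ebp1 are the lowest (-5.25, -4.34, -4.08 and -3.0), while Phgdh, Mthfd1 and Shmt1 stand near 0 and Nupr1 and Slc38a2 are the 2 members beyond 2-fold on the higher side.

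The same 4 days in the iTreg condition went with different changes by starting point. From Th1 cells, all folate enzymes, transaminases and measured transporters had negative log2 differences on the main scale, and the largest were Gpt2 (-2.64), Shmt1 (-1.85), Cbs (at least 3.21-fold lower), Vldlr (-1.63), Shmt2 (-1.36), Psat1 (-1.31), Chac1 (-1.27) and Slc7a5 (-1.26). From rested cells, the same condition went with signals at least 2-fold higher for 27 members. There 8 members were at least 2-fold lower by the first step and at least 2-fold higher by the second: Chac1, Psat1, Shmt1, Shmt2, Gpt2, Bcat1, Slc7a5 and Slc6a9. Of all genes measured, 7.77% were lower by the first step and 27.6% higher by the second. The share that did both is not given here, so whether 8 members are many cannot be said. With the detected probes the first step was -0.93 for both Bcat1 and Slc6a9, under 2-fold. The other probe of Slc7a5 was under 2-fold in both steps (-0.77 and 0.81). Vldlr was lower in both (-1.63 and -2.71), and Nupr1 differed only from rest (0.09 and 5.36). The starting levels also differ between the steps, and the difference between the steps was not tested.

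**Figure D5:**
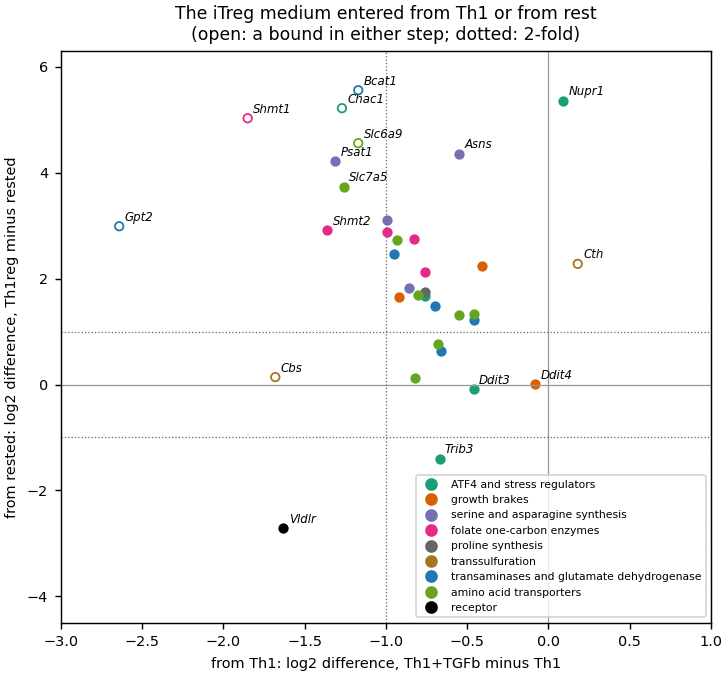
Log2 difference for the step into the iTreg condition from Th1 cells (x axis, Th1+TGFb minus Th1) and from rested cells (y axis, Th1reg minus rested) for the 35 measured members, 1 array against 1 on each axis and open circles where either value is a bound. Most points lie at the upper left, lower from Th1 and higher from rest, with Vldlr low on both axes and Nupr1 near 0 on the x axis.

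The 5 members lower in Th1reg than in Th1 were Vldlr, Gpt2, Cbs, Ddit3 and Ddit4, by 22.7, 4.40, 3.26, 2.10 and 2.07-fold. The remaining 29 were within 2-fold, among them all 5 folate enzymes (median 0.08), all 4 serine and asparagine enzymes (median 0.21) and all 8 measured transporters (median -0.09). Of all genes, 6.27% were higher and 8.58% lower in Th1reg than in Th1, so most were within 2-fold as well. The count of 29 is thus not read as particular to the members. On the spike-in scale, Sesn2 (1.13), Phgdh (1.07) and Mthfd1 (1.06) also passed 2-fold on the higher side, beside Nupr1.

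Other genes of the pathway were taken from lists that hold none of the members. The tRNA synthetases, which load amino acids onto tRNAs and include many ATF4 targets, went with them. Of 20, 19 were lower in rested than in Th1 (median -1.71), where 26.6% of all genes were lower. In Th1reg against rested 16 were higher (median 1.84), where 27.6% of all genes were higher. Between Th1reg and Th1 0 were 2-fold apart, where 6.27% of all genes were higher and 8.58% lower in Th1reg. In iTreg 6 of 20 were lower than in Th1, with a median of -0.83, where 17.8% of all genes were lower. Among the 6 were Cars (-1.51), Aars (-1.43) and Yars (-1.30). In rested against Th1 the largest differences were those of Cars (6.93-fold lower) and Mars (6.47-fold lower).

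Among 10 measured partners and targets of ATF4 outside the members, 6 were lower in iTreg than in Th1 and 8 lower in rested. Of all genes, 17.8% were lower in iTreg and 26.6% lower in rested. Atf3, a stress-induced repressor, was 2.81 in Th1, -1.80 in rested, 1.90 in Th1reg, 2.42 in Th1+TGFb and -1.78 in iTreg, high and low in the same cultures as Asns and Chac1. Stc2, a secreted glycoprotein, was 1.20 in Th1 and 1.15 in Th1reg but not well above background in iTreg, at least 29.1-fold below Th1. Jdp2 was between 0.09 and 0.73 in the other 4 cultures and -2.97 in iTreg. Atf5 was 5.27 in Th1, 2.46 in rested, 3.40 in Th1reg, 5.04 in Th1+TGFb and 3.01 in iTreg, and unlike Atf4 it was 3.64-fold lower in Th1reg than in Th1.

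Of 12 genes for eIF2, its kinases, its phosphatase subunits and eIF2B, 1 was lower in iTreg than in Th1, 6 were lower in rested and 0 were 2-fold apart between Th1+TGFb and Th1. Eif2ak4, the kinase GCN2 that senses uncharged tRNA, was 2.09 in Th1, 1.05 in rested and 2.90 in Th1reg, 3.61-fold higher in the last than in rested. Ppp1r15a, the stress-induced phosphatase subunit GADD34, was 3.80 in Th1, 3.52 in rested, 2.37 in Th1reg, 3.54 in Th1+TGFb and 3.14 in iTreg. It was 2.69-fold lower in Th1reg than in Th1.

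The rest of the folate, glycine and methionine cycle (20 measured genes) changed less with rest. In rested 9 were lower than in Th1, with a median of -0.87, where 26.6% of all genes were lower. In Th1reg 11 were higher and 1 lower than in rested, where 27.6% of all genes were higher and 20.1% lower. In iTreg against Th1 the median was -0.01, with 2 higher and 2 lower, where 10.9% of all genes were higher and 17.8% lower. Tyms, which makes thymidylate, was 2.12-fold higher. Gldc, the glycine cleavage decarboxylase, was -0.75 in Th1, -2.88 in rested, 1.28 in Th1reg, -0.06 in Th1+TGFb and -1.66 in iTreg, highest in Th1reg. Aldh1l1, a folate dehydrogenase, was 1.42 in Th1, 0.97 in rested, -1.31 in Th1reg, 1.85 in Th1+TGFb and -0.71 in iTreg, and so was lowest in Th1reg, 6.64-fold below Th1.

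Other amino acid transporters (14 of 22 measured) showed no such shift. In rested 1 was higher and 4 lower than in Th1, where 17.6% of all genes were higher and 26.6% lower. The median was -0.46 against -0.29 for all genes. Slc38a9, the lysosomal arginine sensor, was 3.44-fold higher in rested than in Th1 and 3.33-fold higher in iTreg. Slc7a7, an exporter of cationic amino acids, was 5.95-fold lower in iTreg and 5.96-fold lower in Th1reg than in Th1. Slc1a2, a glutamate transporter, was well above background only in Th1+TGFb, at least 4.67-fold above Th1.

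Of 14 measured enzymes of glutamine, proline, arginine and polyamine metabolism, 8 were lower in rested than in Th1 and 7 were higher in Th1reg than in rested. Of all genes, 26.6% were lower in the first comparison and 27.6% higher in the second. Odc1, the first enzyme of polyamine synthesis, was 7.65 in Th1, 4.94 in rested, 7.28 in Th1reg, 7.02 in Th1+TGFb and 5.51 in iTreg. Gls2, a glutaminase, was 1.88 in Th1, 1.08 in Th1reg, 0.41 in Th1+TGFb and 0.39 in iTreg, and not well above background in rested, at least 32.2-fold below Th1.

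Among genes that sense amino acids upstream of mTORC1, 2 of 17 measured were higher and 4 lower in rested than in Th1. Of all genes, 17.6% were higher and 26.6% lower there, so these counts are not read as a result about the list. Sesn1, a relative of Sesn2, ran opposite to it: it was 1.90 in Th1, 4.14 in rested, 2.52 in Th1reg, 2.21 in Th1+TGFb and 3.89 in iTreg, highest in the cultures where Sesn2 was lowest. Castor1, an arginine sensor, was 2.17 in Th1, 1.13 in rested, -0.37 in Th1reg, 0.51 in Th1+TGFb and -0.83 in iTreg. Rragd, a Rag GTPase, was well above background only in Th1reg (-1.47) and iTreg (-0.88), the 2 cultures with Foxp3, and exceeded Th1 by at least 5.30-fold in iTreg.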

How the data were processed

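The authors deposited the scanner output of 5 1-colour arrays made, per the file headers and the submitters' processing notes, with Agilent Feature Extraction 10.7.1.1. Its processed signal is a linear intensity with the background subtracted by the software and no scaling between arrays. The deposited value table is also an intensity: 99.7% to 99.8% of its values lay within 0.01 log2 units of the processed signal divided by 1 constant per array (column medians 0.0762, 0.103, 0.123, 0.0693 and 0.0925 for Th1, Th1+TGFb, rested, Th1reg and iTreg). The sources used here do not give how those constants were set.

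Control spots and 109 to 142 outlier spots per array were left out, and no spot was saturated. Spots of a probe were averaged, log2 was taken and the log2 of the array's 75th percentile was subtracted. RefSeq accessions matched 28331 of 55681 probes to genes (assembly GRCm38.p6; the array design names mm9). Where a gene had several probes, the brightest was used. The 14 members with several probes had 16 other probes, of which 1, that of Vldlr, was dim on all arrays and could not be compared. Each remaining probe was paired with each difference of 2-fold or more. Of 51 such pairs, 50 had the same sign and 40 were also 2-fold in the other probe. A dim probe was raised, where needed, to the lowest signal well above background on its array, and a gene dim on both arrays of a comparison did not enter it. The number of arrays limits the precision.

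The members and lists were chosen with earlier results of these data known. Members were all named, as were, for each other list and comparison, at most 3 genes with the largest differences of 2-fold or more. The computation was tested on simulated data. Python 3.11.15 with pandas 2.3.3, R 4.3.3 and limma 3.58.1 (normexp) were used. Alternatives were 2 other scalings, another background correction, the deposited value table, the median over probes and no filter.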

Additional observations from a re-analysis of the deposited data

Results flagged for a closer look

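For 8 members the 4 days in the iTreg condition went with opposite changes of at least 2-fold by starting point on the main scale, lower from Th1 cells and higher from rested cells. Among all genes measured, 7.77% were lower from Th1 cells and 27.6% higher from rested cells. How many genes did both is not given here, so the count of 8 is not read as particular to the members. The step from rested minus the step from Th1 was 6.88 log2 units for Shmt1, 6.73 for Bcat1, 6.49 for Chac1, 5.72 for Slc6a9, 5.64 for Gpt2, 5.53 for Psat1, 5.0 for Slc7a5 and 4.28 for Shmt2. These are values of each gene's brightest probe, and those of Shmt1, Bcat1, Chac1, Slc6a9 and Gpt2 are bounds for that probe, which was not well above background in rested cells. Shmt1 and Bcat1 had other probes that were, with smaller steps: 2.66 from rest and -1.17 from Th1 for Shmt1, and 4.01 and -1.17, and 3.44 and -1.31, for the 2 of Bcat1. The other probe of Slc7a5 gave 0.81 and -0.77, under 2-fold in both steps. With the 75th percentile of detected probes the step from Th1 was -0.93 for Bcat1 and Slc6a9, under 2-fold. With 1 array for each culture the difference was not tested.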

How the results depend on the processing

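No leave-one-out values could be had, and no paired analysis was possible because each group had 1 array. The planned background correction on mean spot signals was not run, since the columns used do not hold them. Normexp on the median signals took its place and was chosen after seeing the data. Of the 126 member differences counted as 2-fold apart, 126 kept their call with the deposited value table and with no filter, 122 with the median over probes, 116 with spike-in scaling, 113 with normexp and 101 with the 75th percentile of detected probes. Reversed was Trib3 in Th1reg against rested, at 0.02 with spike-ins. With the detected probes, 1 member was higher in rested than in Th1 and, in Th1reg against Th1+TGFb, 2 were lower, the latter also with no filter. With spike-ins, 23 were lower in Th1+TGFb than in Th1, 25 were higher in Th1reg than in Th1+TGFb, 1 was lower in Th1reg than in rested, and 4 were higher and 3 lower in Th1reg than in Th1. That scale moved all genes too, their median by -0.31 in Th1+TGFb against Th1 and by 0.60 in Th1reg against Th1+TGFb. These changed counts are therefore not read as a result about the members. With normexp, 2 were lower in Th1reg than in Th1, and with no filter 1 was higher in Th1+TGFb than in Th1. The cause was not tested. Signals near background, such as those of Cbs and Cth, limit the folds given for them.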
